A study of Homo sapiens with 21 samples.

Results

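The genes described here are the secreted WNT ligands, their frizzled receptors and co-receptors, the R-spondins and LGR receptors, the secreted antagonists SFRP and DKK, and the AXIN and TCF/LEF factors, measured by RNA-Seq in SK-N-BE(2) cells after silencing of BAF complex subunits. Members were all protein-coding rows whose symbol belongs to one of these families, with no use of their measured values, which gave 55 genes among 60728 gene identifiers, of which 19988 were protein-coding. SK-N-BE(2) is an established, MYCN-amplified human neuroblastoma line. ARID1A and ARID1B are the alternative ARID subunits of the canonical BAF chromatin remodelling complex, and the study set out to learn which transcripts depend on them. All 21 libraries came from cells of this single line that had been transduced with lentivirus carrying short hairpin RNAs (shRNAs), with RNA taken at 72 h as biological triplicates. The 7 conditions of 3 libraries each were Control (a non-silencing shRNA), the ARID1A labels shARID1A.2 and shARID1A.4, the ARID1B labels shARID1B.2 and shARID1B.3, and, as a silencing of both by a combination of hairpins, shARID1A/B.2.3 with shARID1A/B.4.2.

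The level of both targeted transcripts did not follow these labels, and conditions are therefore named below as their libraries were labelled. ARID1A stood at 6097, 6374 and 6463 normalised reads in Control. It was 2109 to 2169 in shARID1A.2, 2157 to 2289 in shARID1A.4, 1882 to 1962 in shARID1B.2 and 2449.7 to 2507 in shARID1B.3, against 5510.3 to 5752 in shARID1A/B.2.3 and 5352 to 5589 in shARID1A/B.4.2. ARID1B stood at 5793, 5804 and 5791 in Control. It was 2224 to 2252 in shARID1A.2, 3065 to 3126 in shARID1A.4, 2540.5 to 2651 in shARID1A/B.2.3 and 1881 to 1955 in shARID1A/B.4.2, against 4913 to 5056 in shARID1B.2 and 6038 to 6182 in shARID1B.3. The libraries labelled shARID1A were thus low in both transcripts, those labelled shARID1B were low in ARID1A (log2 change -1.72 and -1.35) with ARID1B near Control (-0.21 and 0.072), and those labelled shARID1A/B were low in ARID1B (-1.16 and -1.60) with ARID1A near Control (-0.16 and -0.21).

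In WNT signalling, a secreted ligand binds a frizzled receptor together with the co-receptor LRP5 or LRP6, which halts the AXIN-containing complex that marks β-catenin for destruction. β-catenin then enters the nucleus and acts with TCF/LEF factors, and AXIN2 is among the targets that feed back on the pathway. SFRP and DKK proteins block the pathway outside the cell, R-spondins bound to LGR receptors keep frizzled receptors at the surface, and ROR1, ROR2 and RYK carry WNT signals that do not need β-catenin. These genes matter in the neural crest, the embryonic origin of neuroblastoma.

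A value below is the deposited normalised read count, the reads on a gene divided by the size factor of its library, and libraries held 27954334 to 41077638 reads. Changes are differences of log2(value + 1) from limma with its standard error (SE), fitted on all 21 libraries and 18584 genes, and a gene is said to have risen or fallen only where its Benjamini-Hochberg adjusted p over all genes was under 0.05. The 6 comparisons with Control share the same 3 control libraries. RNA of all cells in a culture was pooled, so fewer cells of a type and less RNA per cell cannot be told apart. All 9 adrenergic neuroblastoma markers were present in Control, with a summed level of 167829 to 172143. That sum was 121021 to 126873 in shARID1A.2, 453501 to 471040 in shARID1A.4, 116713 to 122018 in shARID1B.2, 192138 to 212470 in shARID1B.3, 258679 to 264394 in shARID1A/B.2.3 and 115385 to 118107 in shARID1A/B.4.2. The 9 mesenchymal markers summed to 32854 to 33584 in Control, with PRRX1 and TWIST2 at 0 in all of its libraries, and to 11525 to 29142 in the silenced libraries. Their part in the results was not tested.

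In Control, per kilobase of exon, the secreted antagonists SFRP1 (6435 normalised reads per kb) and DKK1 (6178) and the R-spondin receptor LGR5 (2826) were far above the other members. The SD over the 3 libraries was 116 for SFRP1 and 122 for DKK1. The co-receptors LRP5 (582) and LRP6 (451) came next. FZD2 (444), the receptor tyrosine kinase family member ROR2 (435), FZD7 (407) and RYK (390.3) followed, with SDs of 3.86 for LRP6, 4.05 for FZD2, 6.37 for ROR2, 7.36 for FZD7 and 15.3 for RYK. FZD7 and RYK did not differ beyond this spread. The ligands were low: WNT3 (87.98) and WNT6 (82.1) led them and did not differ beyond their spread, and WNT11 (8.33) and WNT5B (7.56) were the next. Of the nuclear factors, TCF7L2 (186) and TCF7L1 (126) were well above TCF7 (17.2), and LEF1 (0.27) was close to absent.

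**Figure D1:**
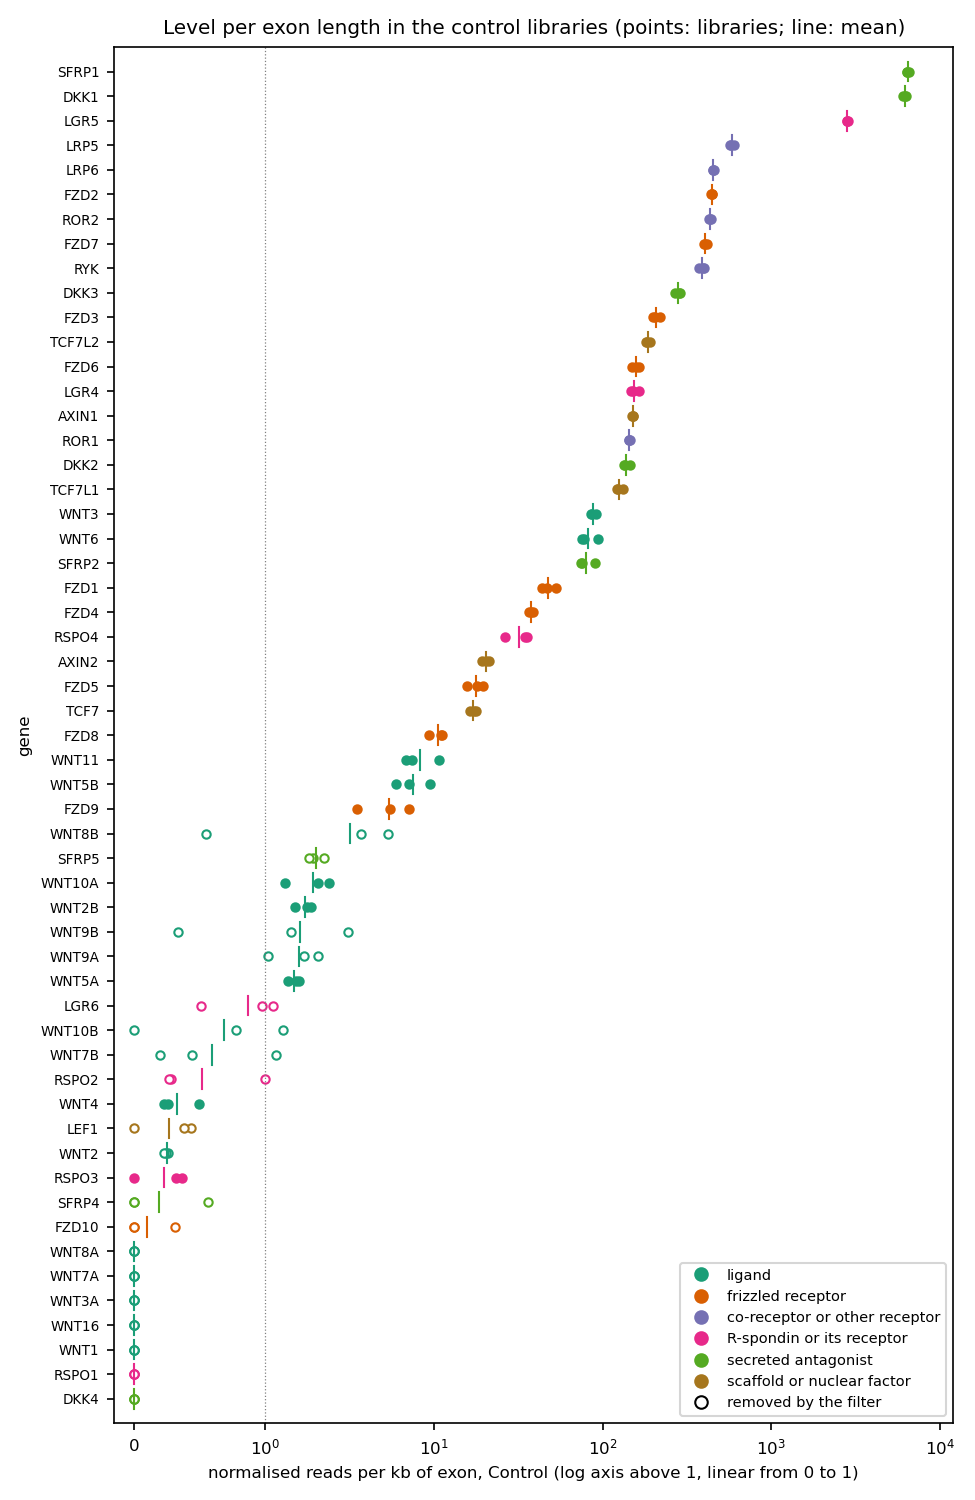
Normalised reads per kb of exon of the 55 member genes in the 3 control libraries, on an axis that is logarithmic above 1 and linear below it. Each point is a library, the short line is the mean, colours give the role and open points mark genes removed by the filter on low values. SFRP1, DKK1 and LGR5 stand apart at the top, and the ligands fill most of the lower end.

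The filter on low values kept 36 of the 55 members. The 19 that were removed comprised 11 ligands (WNT1, WNT2, WNT3A, WNT7A, WNT7B, WNT8A, WNT8B, WNT9A, WNT9B, WNT10B and WNT16), FZD10, LGR6, RSPO1, RSPO2, SFRP4, SFRP5, DKK4 and LEF1. The highest library among them was 18.96 normalised reads, for LGR6 in shARID1A.4, and WNT16 and WNT8A were at 0 in 20 of 21 libraries each. These genes were not detectable or too low for a comparison at this depth. By role, 8 of 19 ligands, 9 of 10 frizzled receptors, all 5 co-receptors and other receptors, 4 of 7 R-spondins and LGR receptors, 5 of 8 antagonists and 5 of 6 scaffold or nuclear factors were tested.

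Not all members that the comparisons below turn on are shown here, and the choice was made by hand. Promoters are shown for 4 of them whose RefSeq promoter window covers no annotated exon of the same gene. They are the 250 bases before the start in GRCh38.p14, 5′ to 3′ on the strand of the gene, and capitals mark matches, on either strand, to CTTTGAA or CTTTGAT (the core bound by TCF/LEF factors), TGANTCA (AP-1) or CACGTG (E-box).
DKK1 (chr10:52314031-52314280, plus strand): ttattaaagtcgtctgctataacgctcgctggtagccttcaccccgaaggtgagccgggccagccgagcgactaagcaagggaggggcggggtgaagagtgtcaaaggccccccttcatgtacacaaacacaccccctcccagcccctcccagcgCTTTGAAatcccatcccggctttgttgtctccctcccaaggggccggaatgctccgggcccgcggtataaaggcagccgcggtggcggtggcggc
ROR1 (chr1:63773767-63774016, plus strand): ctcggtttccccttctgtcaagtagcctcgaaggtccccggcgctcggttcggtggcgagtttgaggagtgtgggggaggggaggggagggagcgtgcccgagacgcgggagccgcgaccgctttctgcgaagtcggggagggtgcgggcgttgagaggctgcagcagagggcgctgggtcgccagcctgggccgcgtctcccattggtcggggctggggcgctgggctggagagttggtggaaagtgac
FZD8 (chr10:35642297-35642546, minus strand): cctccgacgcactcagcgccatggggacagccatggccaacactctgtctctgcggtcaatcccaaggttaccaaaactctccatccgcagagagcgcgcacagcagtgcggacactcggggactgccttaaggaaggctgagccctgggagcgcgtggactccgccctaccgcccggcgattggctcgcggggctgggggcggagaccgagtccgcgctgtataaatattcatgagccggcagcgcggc
RSPO4 (chr20:1002312-1002561, minus strand): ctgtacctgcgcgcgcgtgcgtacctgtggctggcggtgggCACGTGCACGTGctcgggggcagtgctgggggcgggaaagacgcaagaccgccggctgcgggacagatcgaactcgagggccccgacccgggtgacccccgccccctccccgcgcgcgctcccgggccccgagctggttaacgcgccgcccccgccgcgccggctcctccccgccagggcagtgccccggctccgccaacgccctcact
The RefSeq table held 39 of the 55 members. A TCF/LEF core lay in 5.94% of all 35116 promoters of this length and, among the 25 tested members in the table, in DKK1 only. An E-box lay in 6.34% of all promoters and, among the tested members, only in RSPO4, where a pair of copies abut. An AP-1 match lay in 6.57% of all promoters and in 0 of these 25 members. The bases after the RefSeq start were found in a GENCODE transcript of the same gene for DKK1, ROR1 and FZD8 and not for RSPO4. The DKK1 window also covers exon sequence of the antisense gene PRKG1-AS1. A match is a description of the letters and not a measured site.

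Against Control, 28 of the 36 tested members changed in shARID1A.2 (76.1% of all genes tested did), 25 in shARID1A.4 (73.6%), 28 in shARID1B.2 (65.6%), 27 in shARID1B.3 (63.9%), 29 in shARID1A/B.2.3 (69.2%) and 30 in shARID1A/B.4.2 (71.2%). The members' shares ran from 69.4% in shARID1A.4, below that of all genes, to 83.3% in shARID1A/B.4.2, above it. Among changes of at least 1 on the log2 scale, 7 members fell (10.7% of all genes did) and 4 rose (14.1%) in shARID1A.2, and 8 fell (12.0%) and 3 rose (9.32%) in shARID1A.4. In shARID1B.2, 2 fell (5.12%) and 3 rose (6.86%), and in shARID1B.3, 3 fell (6.58%) and 3 rose (5.20%). In shARID1A/B.2.3, 3 fell (9.10%) and 3 rose (7.04%), and in shARID1A/B.4.2, 6 fell (8.14%) and 7 rose (10.3%). WNT4 and RSPO3, with very few control reads, were among these rises in each of the 6 conditions. They passed the filter through silenced libraries, and a fall from their control level could hardly be called. Some of their calls were lost under other settings, as given below. WNT10A, among the rises in shARID1A/B.4.2, was also low in Control and passed the filter through silenced libraries. The median change of the members ran from -0.50 in shARID1A.4 to 0.11 in shARID1B.2, and the median of all genes tested stayed between 0.010 and 0.018 in the 6 comparisons. By role, the 5 antagonists gave 4 falls and no rise in shARID1A.2 and shARID1A/B.2.3, 3 falls and no rise in shARID1A.4, 3 falls and 2 rises in shARID1B.2, and 4 falls and 1 rise in shARID1B.3 and shARID1A/B.4.2. The 9 frizzled receptors gave 5 rises and 2 falls in shARID1A.2, no rise and 5 falls in shARID1A.4, 6 and 2 in shARID1B.2, 4 and 2 in shARID1B.3, 3 and 4 in shARID1A/B.2.3, and 6 and 2 in shARID1A/B.4.2. These counts by role rest on the adjusted p alone, under which 63.9% to 76.1% of all genes changed in either direction. Shares of all genes by direction were not computed, so no trait of a role is read from these counts.

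**Figure D2:**
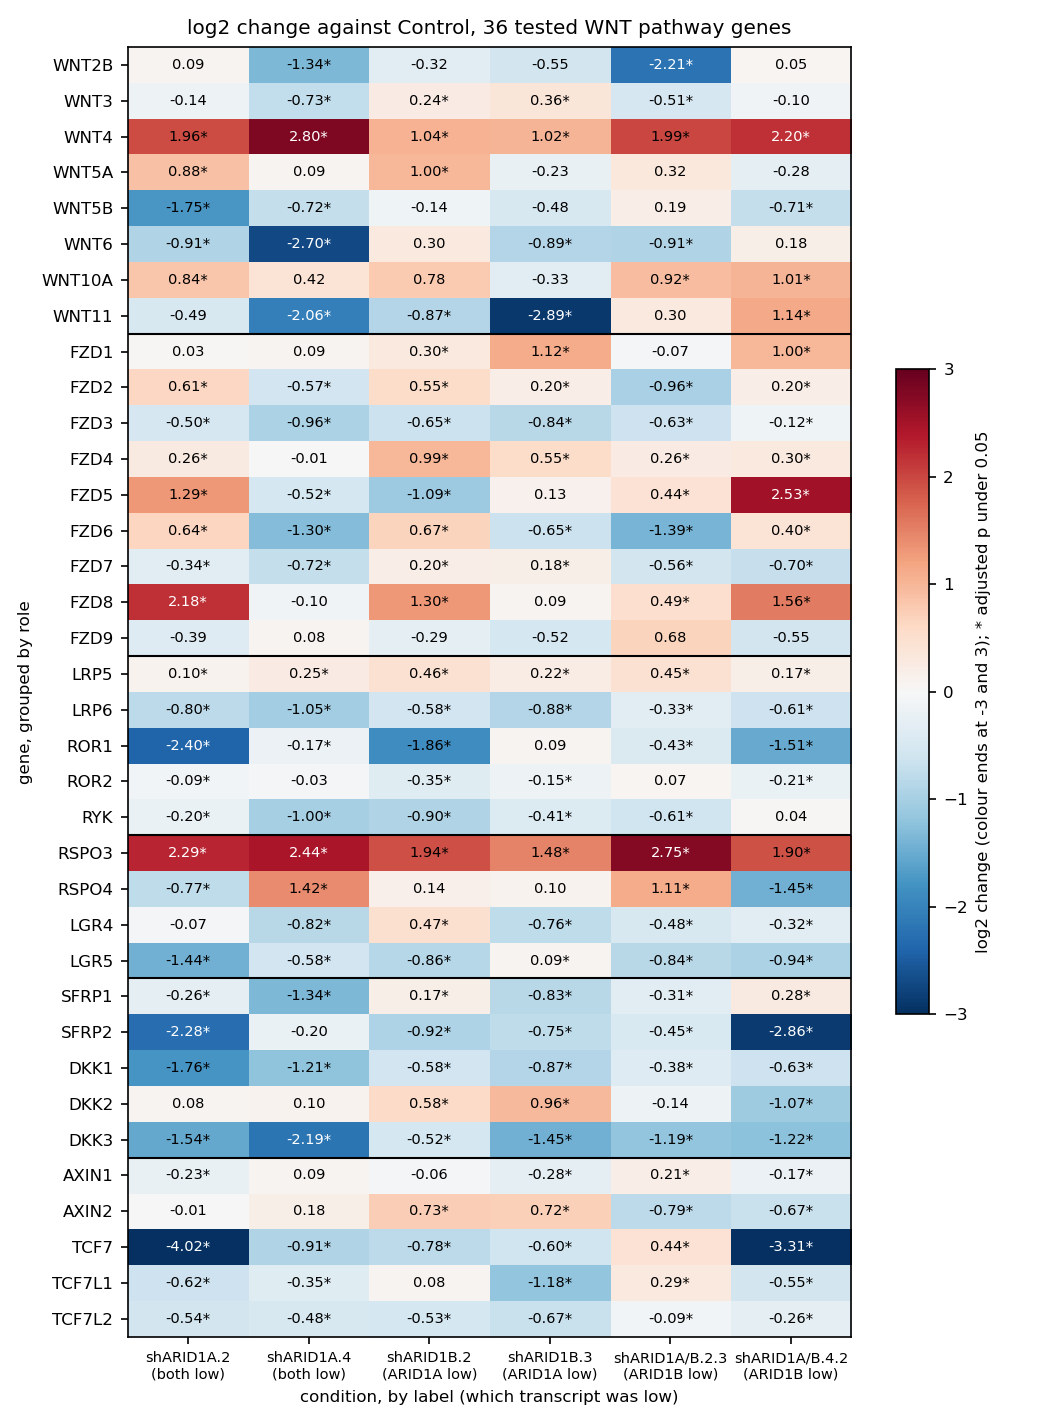
Log2 change against Control of the 36 tested members (rows, by role) in the 6 silenced conditions (columns, with the ARID transcript that was low), from limma, with an asterisk where the adjusted p was under 0.05. DKK1, DKK3 and LRP6 are lower in every column, while TCF7, ROR1, SFRP2 and RSPO4 differ between the columns of a label. The values of WNT4 and RSPO3 rest on very few control reads.

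The antagonist DKK1 (ENSG00000107984.10, chr10:52314296-52318042, plus strand), which binds LRP5 and LRP6 and keeps them from the ligand, fell in each silenced condition. It was at 13714, 13327 and 13844 in Control, 3967, 4133 and 3970.1 in shARID1A.2 and 5789, 6010.02 and 5847 in shARID1A.4. It was at 8935, 9253 and 9075 in shARID1B.2, 7420.5, 7552 and 7329 in shARID1B.3, 10454, 10315 and 10556 in shARID1A/B.2.3 and 8435, 9189 and 8824 in shARID1A/B.4.2. Every silenced library was below every control library, and the libraries labelled shARID1A, low in both ARID transcripts, were below all others. The log2 changes were -1.76 in shARID1A.2, -1.21 in shARID1A.4, -0.58 in shARID1B.2, -0.87 in shARID1B.3, -0.38 in shARID1A/B.2.3 and -0.63 in shARID1A/B.4.2 (SE 0.027, limma adjusted p between 1.40e-25 and 2.70e-12). DKK1 shares 212 exon bases with PRKG1-AS1 on the other strand, whose mean was 121 in Control.

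DKK3 (ENSG00000050165.18, chr11:11963106-12009769, minus strand), a divergent DKK member, also fell throughout. It was at 1357, 1453 and 1429.7 in Control, 450.4, 514 and 494 in shARID1A.2 and 318, 331 and 279 in shARID1A.4. It was at 1047, 918 and 998 in shARID1B.2, 566, 462 and 523 in shARID1B.3, 670.3, 566 and 628 in shARID1A/B.2.3 and 627, 554 and 637 in shARID1A/B.4.2. Control lay above all other libraries, and shARID1A.4 below all others. On the log2 scale it changed by -1.54 in shARID1A.2, -2.19 in shARID1A.4, -0.52 in shARID1B.2, -1.45 in shARID1B.3, -1.19 in shARID1A/B.2.3 and -1.22 in shARID1A/B.4.2 (SE 0.078, limma adjusted p of at most 2.91e-06).

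DKK2, which can act on LRP6 as inhibitor or weak activator, moved in both directions. It was at 586, 628 and 579 in Control, 916, 895 and 869.7 in shARID1B.2, 1028, 1299 and 1184 in shARID1B.3 and 292, 294 and 264 in shARID1A/B.4.2, and at 605, 661 and 633 in shARID1A.2, 605, 631 and 687 in shARID1A.4 and 542, 549 and 531 in shARID1A/B.2.3. It rose where ARID1A alone was low, with log2 changes of 0.58 and 0.96, and fell in shARID1A/B.4.2 by 1.07 on the log2 scale (SE 0.066, limma adjusted p = 2.29e-13). In shARID1A.2, shARID1A.4 and shARID1A/B.2.3 its changes of 0.082, 0.10 and -0.14 did not pass the test. The first was called under scaling to total reads (0.25) and upper-quartile scaling (0.26), the second under upper-quartile scaling (0.185), and the last, at the same value, with the replicate block, the stricter filter, the compared libraries alone or without shARID1A/B.4.2 replicate 3 or shARID1B.3 replicate 1 or 2.

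SFRP1, a frizzled-related protein that binds WNT ligands, was the most abundant member and was at 31237, 30149 and 30519.97 in Control. It was at 25122, 25747 and 25747 in shARID1A.2 and 12143, 11986 and 12247 in shARID1A.4, at 34394, 34966 and 34187 in shARID1B.2 and 16224, 18367 and 17033 in shARID1B.3, and at 24940.1, 24824 and 24529 in shARID1A/B.2.3 and 35661, 39010.2 and 36978 in shARID1A/B.4.2. The conditions of each label lay apart without overlap, and shARID1A.4 and shARID1B.3 lay lowest, at -1.34 and -0.83 on the log2 scale, while shARID1A.2 (-0.26) and shARID1A/B.2.3 (-0.31) were slightly below Control and shARID1B.2 (0.17) and shARID1A/B.4.2 (0.28) slightly above (SE 0.032, limma adjusted p of at most 4.29e-05).

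SFRP2 (ENSG00000145423.5, chr4:153780592-153789120, minus strand), of the same family, was much lower. It was at 152, 154 and 184 in Control, 28.2, 37.1 and 33.4 in shARID1A.2 and 27.3, 15.4 and 23.4 in shARID1A/B.4.2. In the other conditions it was at 149, 145 and 131 in shARID1A.4, 84.9, 75.2 and 96.9 in shARID1B.2, 122, 76.96 and 94.1 in shARID1B.3 and 119, 123 and 114 in shARID1A/B.2.3. The libraries of shARID1A.2 and shARID1A/B.4.2 lay below all others and did not overlap with each other. Against Control it changed on the log2 scale by -2.28 in shARID1A.2, -0.20 in shARID1A.4, -0.92 in shARID1B.2, -0.75 in shARID1B.3, -0.45 in shARID1A/B.2.3 and -2.86 in shARID1A/B.4.2 (SE 0.18). The change in shARID1A.4 did not pass the test (limma adjusted p = 0.312), and that in shARID1A/B.2.3 (limma adjusted p = 0.0278) was lost without Control replicate 3 (-0.36), shARID1A/B.2.3 replicate 1 (-0.46) or replicate 3 (-0.42), with no filter on low values (-0.45) and under upper-quartile scaling (-0.38).

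Among nuclear factors, the widest changes were those of TCF7 (ENSG00000081059.20, chr5:134114711-134151865, plus strand), which encodes the factor TCF1. It was at 179, 175 and 165 normalised reads in Control, 9.97, 8.24 and 11.1 in shARID1A.2 and 16.4, 16.2 and 16.9 in shARID1A/B.4.2. It was at 92.3, 97.5 and 84.8 in shARID1A.4, 97.2, 109.98 and 93.4 in shARID1B.2, 115, 119 and 106 in shARID1B.3 and 238, 242 and 225 in shARID1A/B.2.3. The libraries of shARID1A.2 and shARID1A/B.4.2 were thus far below Control, while those of shARID1A/B.2.3 lay above it. Its log2 changes were -4.02 in shARID1A.2, -0.91 in shARID1A.4, -0.78 in shARID1B.2, -0.60 in shARID1B.3, 0.44 in shARID1A/B.2.3 and -3.31 in shARID1A/B.4.2 (SE 0.12, limma adjusted p of at most 0.00305). TCF7 shares 210 exon bases with SKP1 on the other strand, which had a mean of 10516 in Control, and the sources used here do not state whether strand was used in counting.

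TCF7L1, a TCF that mostly represses its targets, was at 543, 537 and 584 in Control, 364, 372 and 347 in shARID1A.2 and 446, 439 and 417 in shARID1A.4. It was at 599, 594 and 566 in shARID1B.2, 274, 232 and 229 in shARID1B.3, 670.3, 666 and 697 in shARID1A/B.2.3 and 394, 369 and 371 in shARID1A/B.4.2, so that shARID1B.3 lay below and shARID1A/B.2.3 above all others. It fell in shARID1A.2 (-0.62), shARID1A.4 (-0.35), shARID1B.3 (-1.18) and shARID1A/B.4.2 (-0.55), rose in shARID1A/B.2.3 (0.29), and was 0.080 in shARID1B.2, which did not pass the test (SE 0.061) but did under scaling to total reads (0.22) and upper-quartile scaling (0.20). TCF7L2, the main TCF of many epithelia, fell in the 6 conditions, from 1226 to 1287 in Control to 777 to 798 in shARID1B.3 at the lowest, with log2 changes of -0.54 in shARID1A.2, -0.48 in shARID1A.4, -0.53 in shARID1B.2, -0.67 in shARID1B.3, -0.091 in shARID1A/B.2.3 and -0.26 in shARID1A/B.4.2 (SE 0.036). Its call in shARID1A/B.2.3 was lost without Control replicate 2, shARID1A/B.2.3 replicate 1 or replicate 2 (-0.091 to -0.07), in edgeR (-0.072) and DESeq2 (-0.089), and under scaling to total reads (-0.056) or the upper quartile (-0.017). The call in shARID1A/B.4.2 was lost under scaling to total reads (-0.073).

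AXIN2, the feedback target, changed by less than 1 on the log2 scale against Control and is described as a known target of the pathway, chosen after its values were seen. It was at 101, 111 and 107 in Control, 127, 93.7 and 99.1 in shARID1A.2 and 112, 136 and 115 in shARID1A.4. It was at 178, 163 and 189 in shARID1B.2 and 177, 174 and 177 in shARID1B.3, and at 64.8, 48.97 and 71.03 in shARID1A/B.2.3 and 76.5, 55.6 and 69.3 in shARID1A/B.4.2. The 6 libraries labelled shARID1B, low in ARID1A, were the highest of all 21, and the 6 labelled shARID1A/B, low in ARID1B, were the lowest. The log2 changes were 0.73 and 0.72 in the former and -0.79 and -0.67 in the latter (SE 0.14, limma adjusted p between 2.19e-05 and 0.00018). Where both transcripts were low, they were -0.006 in shARID1A.2 and 0.18 in shARID1A.4 and did not pass the test. AXIN2 shares 1316 exon bases with AC004805.1 on the same strand. The mean of that gene was 0.0 in Control, and its level in the silenced libraries was not examined. AXIN1, the constitutive scaffold, moved between -0.28 in shARID1B.3 and 0.21 in shARID1A/B.2.3.

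**Figure D3:**
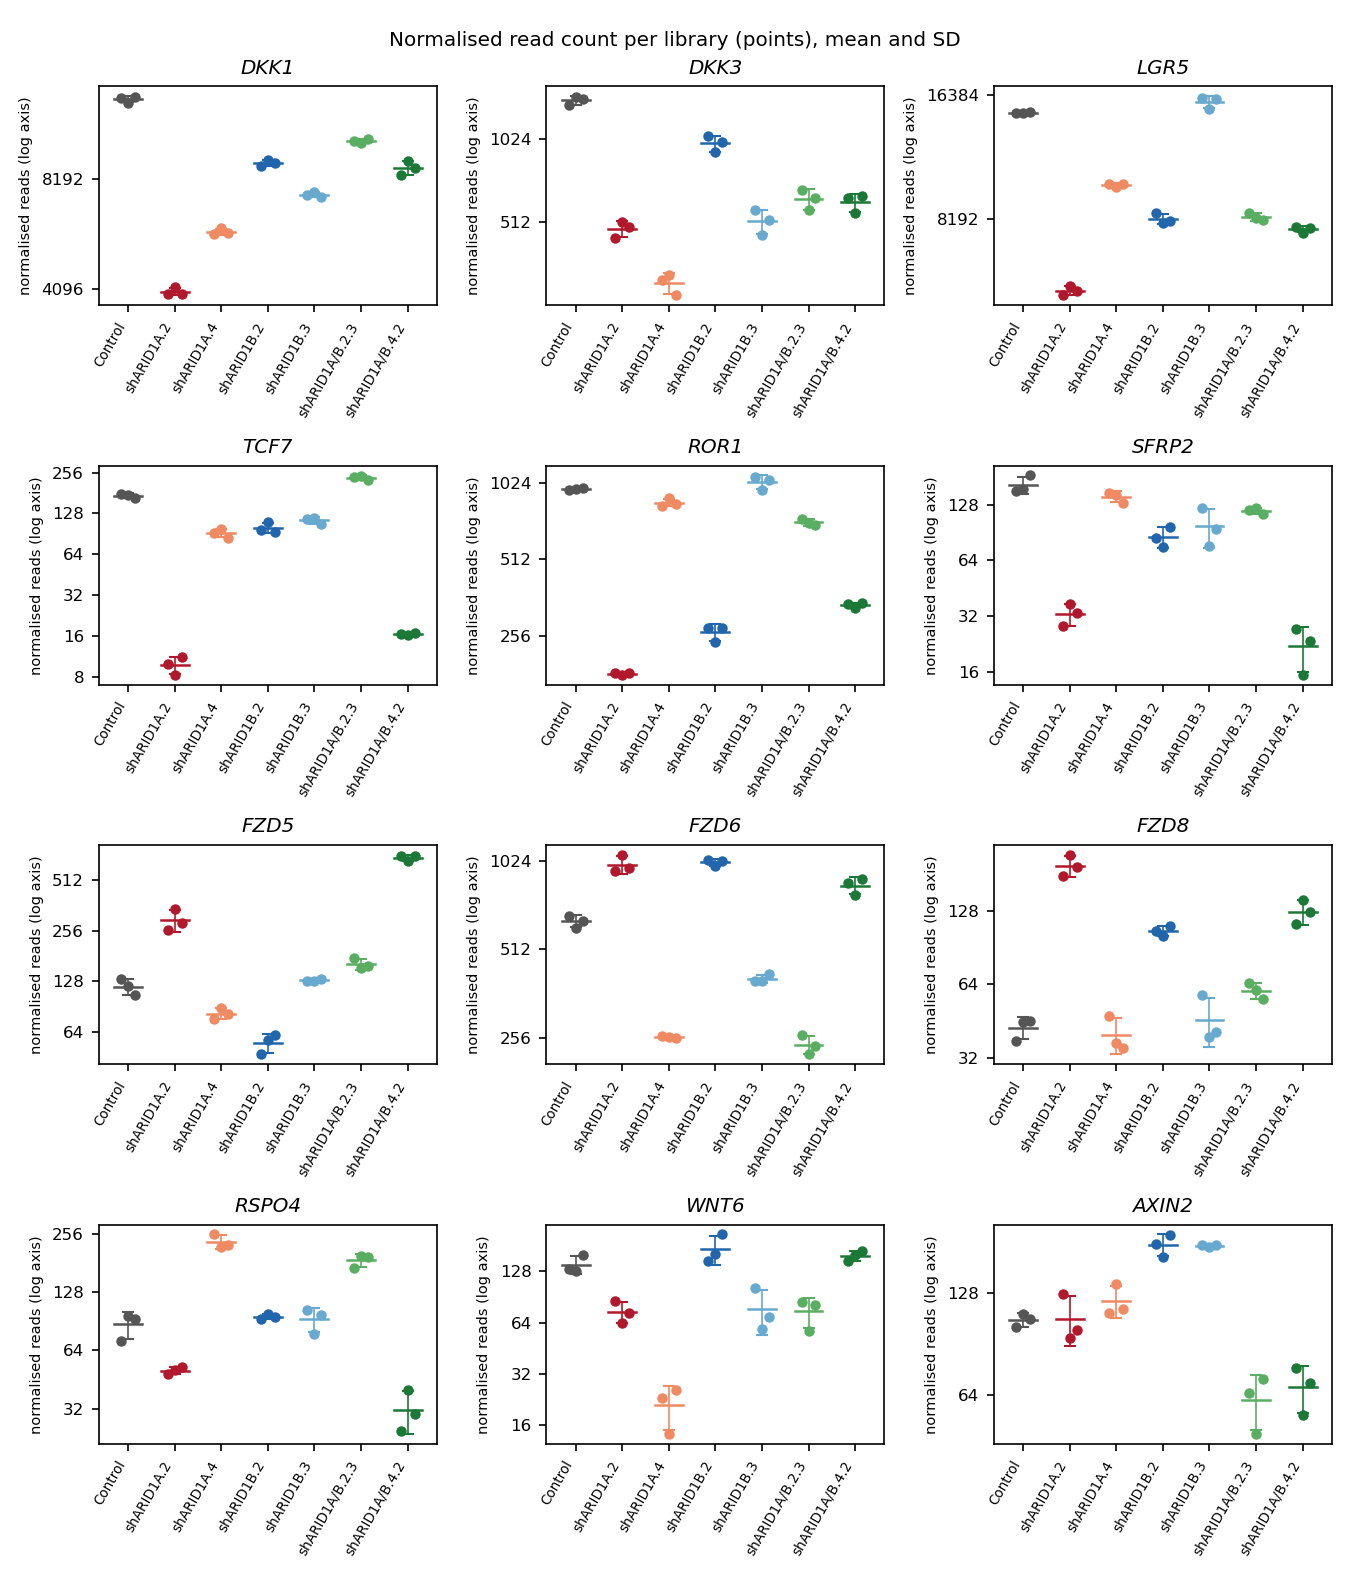
Normalised read counts of 12 members in the 21 libraries, with a logarithmic axis in each panel. Points are libraries, the wide line is the mean and the whiskers are the SD of 3 libraries. TCF7 and SFRP2 are lowest in shARID1A.2 and shARID1A/B.4.2, RSPO4 is highest in shARID1A.4 and shARID1A/B.2.3, and AXIN2 is high under both shARID1B labels and low under both shARID1A/B labels.

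Of the frizzled receptors, FZD8 (ENSG00000177283.7, chr10:35638249-35642278, minus strand) rose most in shARID1A.2. It was at 37.6, 44.8 and 45.2 in Control, 179, 217 and 194 in shARID1A.2, 106, 101 and 111 in shARID1B.2 and 113, 142 and 126 in shARID1A/B.4.2, and these 3 conditions lay above all other libraries. It was at 34.9 to 47.6 in shARID1A.4, 38.96 to 57.7 in shARID1B.3 and 55.5 to 64.8 in shARID1A/B.2.3. On the log2 scale it changed by 2.18 in shARID1A.2, -0.10 in shARID1A.4, 1.30 in shARID1B.2, 0.086 in shARID1B.3, 0.49 in shARID1A/B.2.3 and 1.56 in shARID1A/B.4.2 (SE 0.15), and those in shARID1A.4 and shARID1B.3 did not pass the test (limma adjusted p = 0.565 and 0.644).

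FZD5 (ENSG00000163251.4, chr2:207762586-207769563, minus strand) had the largest rise of any frizzled receptor. It was at 132, 121 and 106 in Control, 258, 346 and 283 in shARID1A.2, 76.7, 89.2 and 81.8 in shARID1A.4 and 47.3, 57.9 and 61.4 in shARID1B.2. It was at 128, 129 and 133 in shARID1B.3, 176, 153 and 158 in shARID1A/B.2.3 and 707, 659.7 and 709 in shARID1A/B.4.2. The libraries of shARID1A/B.4.2 were above all others and those of shARID1B.2 below all others. Against Control it changed on the log2 scale by 1.29 in shARID1A.2, -0.52 in shARID1A.4, -1.09 in shARID1B.2, 0.13 in shARID1B.3, 0.44 in shARID1A/B.2.3 and 2.53 in shARID1A/B.4.2 (SE 0.11), of which that in shARID1B.3 did not pass the test (limma adjusted p = 0.324).

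FZD6, a receptor active in planar cell polarity, was at 667, 607 and 639 in Control. It was higher at 942, 1072 and 968 in shARID1A.2, 1033, 982 and 1019 in shARID1B.2 and 858, 782 and 892 in shARID1A/B.4.2. It was lower at 259, 257 and 255 in shARID1A.4, 399, 399 and 421 in shARID1B.3 and 261, 226 and 239 in shARID1A/B.2.3. Thus 1 condition of each label lay on each side of Control with no overlap. Its log2 changes were 0.64 in shARID1A.2, -1.30 in shARID1A.4, 0.67 in shARID1B.2, -0.65 in shARID1B.3, -1.39 in shARID1A/B.2.3 and 0.40 in shARID1A/B.4.2 (SE 0.060, limma adjusted p of at most 1.71e-06). FZD2 showed the same split within 2 labels, from 929 to 946 in Control to 1340.04 to 1505 in shARID1A.2 and 606 to 658 in shARID1A.4, and to 457 to 494 in shARID1A/B.2.3 and 1002 to 1172 in shARID1A/B.4.2. FZD1 was at 369, 306 and 325 in Control and rose to 685, 811 and 681 in shARID1B.3 and 612, 718 and 672 in shARID1A/B.4.2, above all other libraries. It was at 333, 328 and 355 in shARID1A.2, 389, 314 and 361 in shARID1A.4, 359, 441 and 433 in shARID1B.2 and 297, 337 and 320.1 in shARID1A/B.2.3. Its log2 change was 1.12 in shARID1B.3 and 0.30 in shARID1B.2 (SE 0.092), while shARID1A.2 (0.028), shARID1A.4 (0.090) and shARID1A/B.2.3 (-0.065) did not pass the test, and that in shARID1A.2 was called under upper-quartile scaling (0.21). FZD3, a receptor of axon guidance, was at 2742 to 3006 in Control and fell in the 6 conditions, with log2 changes from -0.96 in shARID1A.4 to -0.12 in shARID1A/B.4.2. The last of these turned to 0.064 under scaling to total reads and to 0.039 under upper-quartile scaling, and its call was lost without Control replicate 1 (-0.087) or shARID1A/B.4.2 replicate 2 (-0.10). FZD4 rose by up to 0.99 in shARID1B.2. FZD7 fell by up to 0.72 in shARID1A.4 and rose by up to 0.20 in shARID1B.2. FZD4 shares 1399 exon bases with PRSS23 on the other strand (mean 1717 in Control), and FZD6 shares 138 with BAALC-AS1 (61.4). FZD9, at 8.22 to 16.8 in Control, passed the test in none of these 6 comparisons.

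Of the co-receptors, LRP6 fell and its relative LRP5 rose in the 6 conditions. LRP6 was at 4712, 4637 and 4652 in Control, 2696, 2637 and 2736 in shARID1A.2 and 2248, 2239 and 2259 in shARID1A.4. It was at 3180.03, 3001 and 3170.1 in shARID1B.2, 2583, 2502 and 2508 in shARID1B.3, 3735, 3791 and 3633 in shARID1A/B.2.3 and 3156, 2942 and 3067 in shARID1A/B.4.2, and no silenced library reached the control level. The log2 changes were -0.80 in shARID1A.2, -1.05 in shARID1A.4, -0.58 in shARID1B.2, -0.88 in shARID1B.3, -0.33 in shARID1A/B.2.3 and -0.61 in shARID1A/B.4.2 (SE 0.028, limma adjusted p of at most 1.81e-10). LRP5 was at 3521 to 3687 in Control and changed by 0.095 in shARID1A.2, 0.25 in shARID1A.4, 0.46 in shARID1B.2, 0.22 in shARID1B.3, 0.45 in shARID1A/B.2.3 and 0.17 in shARID1A/B.4.2 (SE 0.039). Its small change in shARID1A.2 (limma adjusted p = 0.031) was lost without Control replicate 1 or 3 or shARID1A.2 replicate 1 or 3 (0.076 to 0.089), and with no filter on low values (0.095).

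ROR1 (ENSG00000185483.12, chr1:63774022-64181498, plus strand), a receptor for WNT5A that is expressed in embryos and many tumours, was at 959.6, 965 and 974 in Control, 184, 180.2 and 184 in shARID1A.2, 277, 242 and 277 in shARID1B.2 and 342, 331 and 345 in shARID1A/B.4.2. It was at 832, 891 and 848 in shARID1A.4, 1082, 958 and 1049.99 in shARID1B.3 and 741, 709.6 and 698 in shARID1A/B.2.3. The libraries of shARID1A.2, shARID1B.2 and shARID1A/B.4.2 lay below all others, 1 condition from each label. On the log2 scale it changed by -2.40 in shARID1A.2, -0.17 in shARID1A.4, -1.86 in shARID1B.2, 0.090 in shARID1B.3, -0.43 in shARID1A/B.2.3 and -1.51 in shARID1A/B.4.2 (SE 0.054), and that in shARID1B.3 did not pass the test (limma adjusted p = 0.151). Its call in shARID1A.4 was lost under upper-quartile scaling (-0.087), and the change in shARID1B.3 was called in edgeR (0.12), under that scaling (0.15) and without shARID1B.3 replicate 2 (0.14). The antisense gene ROR1-AS1 was at 153, 168 and 172 in Control and at 23.4 to 29.1 in shARID1A.2, 51.5 to 65.4 in shARID1A.4, 62.1 to 88.9 in shARID1B.2, 186 to 221 in shARID1B.3, 14.6 to 23.4 in shARID1A/B.2.3 and 13.1 to 22.8 in shARID1A/B.4.2. It fell in shARID1A/B.2.3 by 3.00 on the log2 scale (SE 0.20), where ROR1 fell by 0.43. The change of ROR2 lay between -0.35 in shARID1B.2 and 0.067 in shARID1A/B.2.3, and its fall in shARID1A.2 (-0.092) turned to 0.080 or 0.090 under total-read or upper-quartile scaling. RYK was at 3001 to 3232 in Control and fell to 1533 to 1607 in shARID1A.4 and 1601 to 1736 in shARID1B.2, while its log2 change of 0.037 in shARID1A/B.4.2 did not pass the test.

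Of the R-spondin branch, the receptor LGR5 (ENSG00000139292.13, chr12:71439770-71586310, plus strand), a marker of stem cells in the intestine, was the most abundant. It was at 14825, 14821 and 14869 in Control, 5347, 5636 and 5461 in shARID1A.2, 9969, 9799.9 and 9955 in shARID1A.4 and 8444, 7988 and 8101 in shARID1B.2. It was at 16143, 15133 and 15993 in shARID1B.3, 8471, 8232 and 8149.6 in shARID1A/B.2.3 and 7818, 7584 and 7804 in shARID1A/B.4.2. The 3 shARID1B.3 libraries alone lay above Control, and shARID1A.2 lay below all others. Against Control it changed on the log2 scale by -1.44 in shARID1A.2, -0.58 in shARID1A.4, -0.86 in shARID1B.2, 0.086 in shARID1B.3, -0.84 in shARID1A/B.2.3 and -0.94 in shARID1A/B.4.2 (SE 0.026, limma adjusted p of at most 0.00537). LGR4, named after its values were seen, was at 937 to 1037 in Control, and the conditions labelled shARID1B moved to opposite sides of it, at 1334 to 1384 in shARID1B.2 and 538 to 612 in shARID1B.3.

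The ligand RSPO4 (ENSG00000101282.9, chr20:958452-1002264, minus strand) was at 71.7, 96.3 and 93.5 in Control. It was higher at 254, 219 and 225 in shARID1A.4 and 171, 197 and 196 in shARID1A/B.2.3, and lower at 48.2, 50.5 and 52.3 in shARID1A.2 and 24.6, 40.2 and 29.97 in shARID1A/B.4.2, with no overlap with Control. It was at 92.8, 98.4 and 95.2 in shARID1B.2 and 104, 77.9 and 97.6 in shARID1B.3, overlapping with Control. Its log2 changes were -0.77 in shARID1A.2, 1.42 in shARID1A.4, 0.14 in shARID1B.2, 0.095 in shARID1B.3, 1.11 in shARID1A/B.2.3 and -1.45 in shARID1A/B.4.2 (SE 0.15), and those under the shARID1B labels did not pass the test (limma adjusted p = 0.424 and 0.602). RSPO3 had 2 reads in all over the 3 control libraries, at 1.17, 0 and 1.03 normalised reads, and lay between 2.85 and 17.7 in the silenced libraries. It was called higher in the 6 conditions, and its fold is not given at so few reads. The call in shARID1B.3 was lost in the edgeR and DESeq2 tests, with a pseudocount of 5, and without Control replicate 2 or shARID1B.3 replicate 3.

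Of the ligands, WNT6 (ENSG00000115596.4, chr2:218859821-218874233, plus strand), which is known from neural crest induction, was at 132, 129 and 159 in Control, 85.6, 63.9 and 73.5 in shARID1A.2 and 23.3, 14.3 and 25.9 in shARID1A.4. It was at 148, 161 and 211 in shARID1B.2, 103, 58.9 and 69.1 in shARID1B.3, 85.05, 57.3 and 81.7 in shARID1A/B.2.3 and 148, 159.9 and 168 in shARID1A/B.4.2. The shARID1A.4 libraries were below all others. The log2 changes were -0.91 in shARID1A.2, -2.70 in shARID1A.4, 0.30 in shARID1B.2, -0.89 in shARID1B.3, -0.91 in shARID1A/B.2.3 and 0.18 in shARID1A/B.4.2 (SE 0.21), and the values in shARID1B.2 and shARID1A/B.4.2 did not pass the test (limma adjusted p = 0.218 and 0.442). WNT11, a ligand of β-catenin-independent signalling, was low, at 16.4, 17.9 and 25.7 in Control. It was at 36.4 to 53.3 in shARID1A/B.4.2, and at 2.00 to 5.95 in shARID1A.4 and 0.86 to 2.99 in shARID1B.3, with log2 changes of 1.14, -2.06 and -2.89 (SE 0.35). Its fall in shARID1B.2 (-0.87) was lost under both other scalings (-0.74 and -0.76), with no filter on low values, and without Control replicate 3 (-0.685) or shARID1B.2 replicate 3 (-0.63).

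WNT3 was at 372 to 396 in Control and fell by 0.73 in shARID1A.4 and 0.51 in shARID1A/B.2.3 and rose by 0.24 in shARID1B.2 and 0.36 in shARID1B.3 (SE 0.073). WNT5A, the ligand of ROR1 and ROR2, was at 10.1 to 11.8 in Control and at 22.2 to 23.6 in shARID1B.2. WNT5B was at 25.7 to 41.1 in Control and fell to 5.15 to 11.6 in shARID1A.2. WNT2B, which shares 2661 exon bases with ST7L on the other strand (mean 551 in Control), was at 18.8 to 23.6 in Control and fell to 4.99 to 11.7 in shARID1A.4 and 2.92 to 6.08 in shARID1A/B.2.3. WNT10A was at 4.48 to 8.22 in Control and at 11.6 to 19.7 in shARID1A/B.4.2. WNT4 was at 1.17, 2.24 and 1.03 in Control and reached 11.98 to 19.03 in shARID1A.4. It was called higher in the 6 conditions, but its calls in shARID1B.2 and shARID1B.3 were lost in edgeR and DESeq2, with a pseudocount of 5, with no filter on low values and with the compared libraries alone. They were also lost without Control replicate 1 or 3, or without replicate 1 or 2 of the condition itself, where the log2 change was 0.71 to 1.04.

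The conditions that share a label were compared directly, which needs no control library. Between shARID1A.2 and shARID1A.4, 27 of 36 members differed (75.8% of all genes tested did), and 13 differed by at least 1 on the log2 scale (23.9%). Between shARID1B.2 and shARID1B.3, 25 differed (66.0%), and 11 by at least 1 (13.7%). Between shARID1A/B.2.3 and shARID1A/B.4.2, 29 differed (74.9%), and 12 by at least 1 (22.3%). Under shARID1A and shARID1A/B, TCF7 differed most of the members, at -3.11 (SE 0.12, adjusted p = 2.98e-17) for shARID1A.2 minus shARID1A.4 and 3.75 (SE 0.12, adjusted p = 7.40e-19) for shARID1A/B.2.3 minus shARID1A/B.4.2, and at -0.18 under shARID1B, which did not pass the limma test. SFRP2 and RSPO4 differed in the same 2 labels, SFRP2 by -2.08 and 2.41 and RSPO4 by -2.18 and 2.56, with -0.17 and 0.047 under shARID1B, which did not pass the test. ROR1 differed in the 3 labels, by -2.22 for shARID1A.2 minus shARID1A.4, -1.96 for shARID1B.2 minus shARID1B.3 and 1.08 for shARID1A/B.2.3 minus shARID1A/B.4.2 (SE 0.054). FZD6 differed by 1.94, 1.31 and -1.80 in the same order, FZD8 by 2.28, 1.21 and -1.06, and FZD5 by 1.82, -1.22 and -2.09. AXIN2 differed by -0.18, 0.003 and -0.13 (SE 0.14, limma adjusted p = 0.238, 0.984 and 0.42), none of which passed the test.

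**Figure D4:**
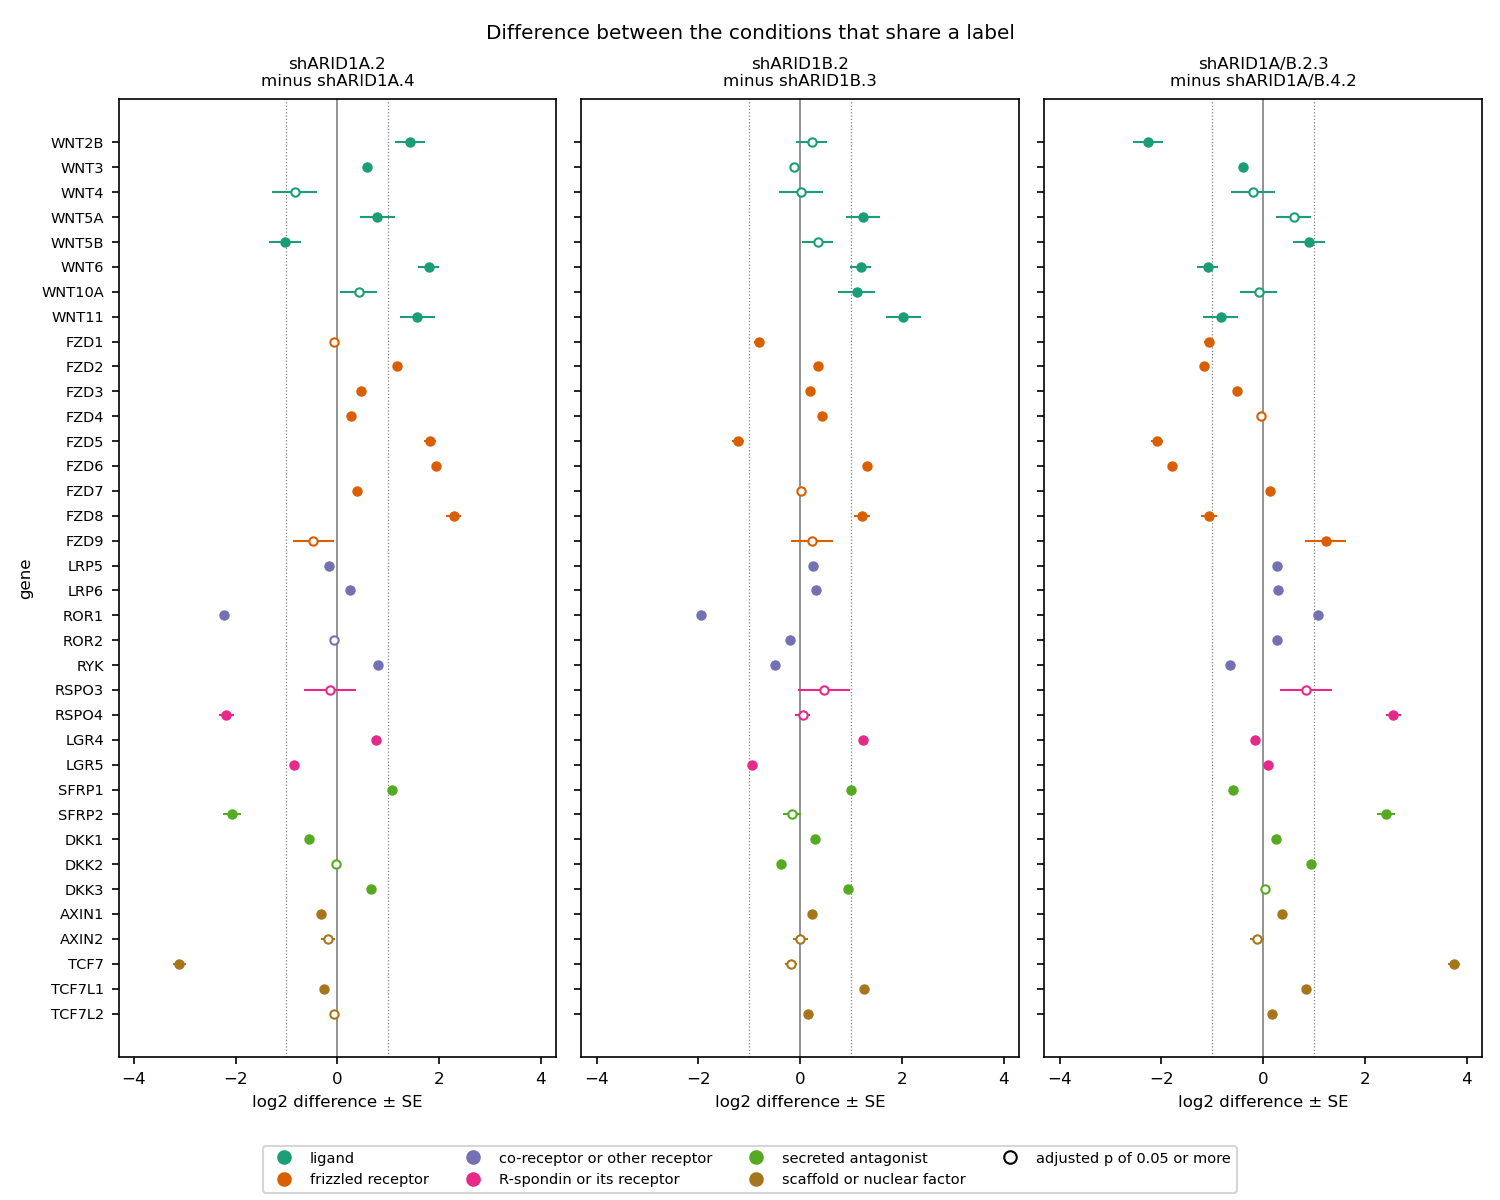
Log2 difference between the conditions that share a label, for the 36 tested members by role, with bars for the SE from limma. Filled points passed an adjusted p of 0.05 and dotted lines mark a difference of 1. TCF7, RSPO4 and SFRP2 lie far to the left in the first panel and far to the right in the last, and AXIN2 lies near 0 in each.

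Between labels, the mean of the conditions of each label was compared. Of 36 members, 27 differed between shARID1A and shARID1B (67.3% of all genes tested did), 27 between shARID1A and shARID1A/B (59.2%) and 29 between shARID1A/B and shARID1B (70.2%). By at least 1 on the log2 scale, 3 (6.03%), 4 (3.62%) and 5 (8.03%) differed. The first 3 counts fell to 12, 8 and 12 when each label was fitted as a single group, where differences between its conditions count as spread, and the shares of all genes called fell with them to 21.4%, 9.31% and 27.9%. That fit counts all libraries of a label as independent although they share conditions, so its p-values can be too small. AXIN2 was lower in shARID1A/B than in shARID1B by 1.46 on the log2 scale (SE 0.099, limma adjusted p = 1.87e-12), and shARID1A lay between, 0.81 above shARID1A/B and 0.64 below shARID1B. All 3 differences also passed in limma with labels as single groups (adjusted p = 1.83e-08, 0.000103 and 0.00043). AXIN2 was chosen after its values were seen, and its conditions lay close within each label. Passing this fit is therefore no independent support.

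DKK1 was lower in shARID1A than in shARID1B and shARID1A/B, at -0.76 and -0.98 on the log2 scale (SE 0.019), and both differences passed in limma with labels as single groups (adjusted p = 6.94e-05 and 1.15e-05). DKK2 was lower in shARID1A/B than in shARID1B, at -1.38 (single groups, limma adjusted p = 6.78e-06). The label mean of WNT6 was lower in shARID1A than in shARID1B and shARID1A/B, at -1.51 and -1.44, with limma adjusted p of 0.0133 and 0.0338 in single groups. The differences of WNT6 did not hold between all conditions of the labels. The WNT6 values of shARID1A.2 (63.9 to 85.6) overlapped with those of shARID1B.3 (58.9 to 103) and shARID1A/B.2.3 (57.3 to 85.05). In limma, TCF7 was lower in shARID1A than in shARID1B, at -1.77 (SE 0.088, adjusted p = 4.61e-15), but this difference did not pass with labels as single groups.

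Of 54 further WNT pathway genes listed for context, 49 passed the filter, and 41, 42, 41, 38, 41 and 42 of them changed in the 6 conditions, in the order of the member counts above. These are 77.6% to 85.7% of the 49, beside the 63.9% to 76.1% of all genes. In the same order, 7, 10, 5, 6, 5 and 2 of them fell by at least 1 on the log2 scale and 4, 5, 2, 1, 2 and 2 rose by as much. The shares of all genes were 10.7%, 12.0%, 5.12%, 6.58%, 9.10% and 8.14% for the falls and 14.1%, 9.32%, 6.86%, 5.20%, 7.04% and 10.3% for the rises. FRZB, a secreted frizzled-related antagonist, was at 553, 569 and 512 in Control and at 171 to 176 in shARID1A.2, 189 to 236 in shARID1A.4, 489.7 to 536 in shARID1B.2, 161 to 203 in shARID1B.3, 161 to 187 in shARID1A/B.2.3 and 91.2 to 108 in shARID1A/B.4.2. Its log2 changes were -1.64 in shARID1A.2, -1.39 in shARID1A.4, -0.082 in shARID1B.2, -1.63 in shARID1B.3, -1.63 in shARID1A/B.2.3 and -2.45 in shARID1A/B.4.2 (SE 0.094), and that in shARID1B.2 did not pass the test. TNFRSF19, a receptor induced by β-catenin, was at 329, 323 and 312 in Control and fell in the 6 conditions, with log2 changes of -1.94 in shARID1A.2, -3.11 in shARID1A.4, -1.84 in shARID1B.2, -2.42 in shARID1B.3, -2.31 in shARID1A/B.2.3 and -0.72 in shARID1A/B.4.2 (SE 0.13). CCND1, which encodes cyclin D1, was at 39766, 39681 and 39769.6 in Control and changed by -1.71 in shARID1A.2, -1.53 in shARID1A.4, -1.08 in shARID1B.2, -0.28 in shARID1B.3, -1.51 in shARID1A/B.2.3 and -0.54 in shARID1A/B.4.2 (SE 0.029, limma adjusted p of at most 5.87e-09). DAAM2, a formin that binds dishevelled, was at 259 to 282 in Control and changed by -2.46 in shARID1A.2, -1.38 in shARID1A.4, -1.19 in shARID1B.2, -2.29 in shARID1B.3, -0.35 in shARID1A/B.2.3 and -1.99 in shARID1A/B.4.2 (SE 0.15). Its call in shARID1A/B.2.3 was lost without any single control library or without shARID1A/B.2.3 replicate 1 or 2 (-0.38 to -0.30), under scaling to total reads (-0.31) or the upper quartile (-0.27), and with no filter on low values. BCL9, a co-activator of β-catenin, was at 2272, 2359 and 2331 in Control and rose by 1.26 in shARID1A.2, 1.01 in shARID1A.4, 0.70 in shARID1B.2, 0.57 in shARID1B.3, 0.88 in shARID1A/B.2.3 and 0.92 in shARID1A/B.4.2 (SE 0.025). MUSK, a receptor kinase with a frizzled-like domain, was at 1.17, 3.36 and 5.14 in Control and rose to 18.5 to 25.8 in shARID1A.2, 9.98 to 17.8 in shARID1A.4, 10.9 to 12.3 in shARID1B.3 and 16.2 to 29.03 in shARID1A/B.4.2. These rises of MUSK are among those counted above. Like WNT4 and RSPO3, MUSK passed the filter through silenced libraries, and a fall from its control level could hardly be called. CTNNB1, which encodes β-catenin and was named after its values were seen, was at 6404 to 6594 in Control, with log2 changes from -0.43 in shARID1A.2 to 0.040 in shARID1B.3, the last not passing the test.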

How the data were processed

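RNA-Seq libraries from SK-N-BE(2) cells, 21 in number, were prepared by the authors with a stranded poly(A) kit, and per the labels were aligned to GRCh38 with STAR 2.5.3a, counted with RSEM 1.3.0 and scaled with DESeq2 1.26.0 (the submitters' processing notes). The annotation release is not given in the sources used here. The authors deposited 1 signal per gene and library, the reads divided by a size factor of the library. Whole reads were recovered from the steps of these values (100% whole within 0.02 reads, size factors 0.841 to 1.295), giving 27954334 to 41077638 reads per library. Deposited columns that held the authors' own comparisons were not used, and 0 columns of values had no library.

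Genes kept by edgeR's filterByExpr on the recovered reads (18584) were fitted with limma 3.58.1 (trend, R 4.3.3) on log2(value + 1) over 7 conditions, with Benjamini-Hochberg adjustment. A fold change on this scale understates the change of low genes. The tests are based on 3 libraries per condition, and their SE measures the spread between libraries of a condition and not that between hairpins. A count test, edgeR 4.0.16 (quasi-likelihood, TMM), on the recovered reads called 14188 genes in shARID1A.2 against Control where limma called 14142, and DESeq2 1.42.0 was run as another alternative. Further alternatives were other scalings, pseudocounts and filters, a replicate block and leaving out each library. Coordinates and exon lengths are from GENCODE 29 (GRCh38), promoters from RefSeq.

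Values in every library, or for FZD8 in part as ranges, were given for members that passed an adjusted p of 0.05 with a log2 change of at least 1 in at least 1 condition against Control and had a mean of at least 50 in a condition. Further pathway genes were named where they passed the same p and log2 change, at any level, in the same direction in both conditions of a label. AXIN1, AXIN2, FZD2, FZD3, FZD4, FZD7, LGR4, LRP5, ROR2, RYK, TCF7L2, WNT3, CTNNB1 and the low members were described outside this rule, after their values were seen. Members and lists were chosen with earlier results of these data known. The labels do not say which library belongs to which batch.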

Additional observations from a re-analysis of the deposited data

Results flagged for a closer look

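Several members were called in opposite directions against Control in the conditions that share a label, and the direct limma comparison of these conditions also passed the test with a log2 difference of at least 1. Between shARID1A.2 and shARID1A.4 these were FZD2 (1.181), FZD5 (1.819), FZD6 (1.944) and RSPO4 (-2.184). Between shARID1B.2 and shARID1B.3 they were FZD6 (1.314), LGR4 (1.229) and SFRP1 (1.006). Between shARID1A/B.2.3 and shARID1A/B.4.2 they were FZD2 (-1.167), FZD6 (-1.797), RSPO4 (2.560) and TCF7 (3.752). In these 3 comparisons, in the same order, 23.9%, 13.7% and 22.3% of all genes tested differed by at least 1 on the log2 scale. The share of all genes also called in opposite directions was not computed, so these lists are not read as particular to the members.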

How the results depend on the processing

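Counts of members called stayed within 1.5 times the reported ones under each alternative, except that fitting each label as a single group gave 12 (shARID1A against shARID1B), 8 (shARID1A against shARID1A/B) and 12 (shARID1A/B against shARID1B), where differences between the conditions of a label enter the spread, beside 21.4%, 9.31% and 27.9% of all genes. With 25 to 30 of 36 members called in the reported fits, this range is wide, and staying within it says little. Over 186 changes against Control of 31 genes, recomputed under each setting that kept the gene, 5640 recomputed values kept their sign and call. The stricter filter dropped some of these genes. The filters, the replicate block, the compared libraries alone and leaving out a library of another condition do not alter the log2 change. Under those settings only the call could move, so many of the kept signs were fixed in advance. With the sign kept, a call was lost 57 times and gained 15 times. The sign turned 24 times, counted whether or not the value passed the test. Scaling to total reads shifted the median of all genes by 0.169 in shARID1A.2, 0.135 in shARID1B.2 and 0.184 in shARID1A/B.4.2, and upper-quartile scaling by 0.179, 0.117 and 0.16. Under these 2 scalings, in that order, the log2 change turned for FZD3 in shARID1A/B.4.2 (0.064 and 0.039), LGR4 in shARID1A.2 (0.102 and 0.113), AXIN2 in shARID1A.2 (0.165 and 0.175), FRZB in shARID1B.2 (0.054 and 0.036) and MUSK in shARID1B.2 (0.020 and 0.007), and under the second for FZD1 in shARID1A/B.2.3 (0.009). Outside these 186, the called falls of ROR2 in shARID1A.2 and AXIN1 in shARID1A/B.4.2 turned to 0.080 (0.090 with the upper quartile) and 0.019 with total reads, as did the differences of FZD7 (-0.012) and LGR5 (-0.054) between shARID1A/B.2.3 and shARID1A/B.4.2. AXIN2 in shARID1A.2 was 0.040 in edgeR and 0.020 in DESeq2. Leaving out 1 library, values that did not pass the test ran from -0.032 to 0.104 for FZD1 in shARID1A.2, from -0.124 to 0.011 for FZD1 in shARID1A/B.2.3, from -0.090 to 0.188 for FZD8 and from -0.038 to 0.216 for RSPO4 in shARID1B.3, from -0.138 to 0.080 for AXIN2 in shARID1A.2 and from -0.493 to 0.257 for MUSK in shARID1B.2. Apart from the shift of the scalings, the cause was not tested. Same-numbered replicates did not deviate together (correlations -0.088 to 0.053, 6 of 21 libraries correlating best with their own number), and with the replicate number as a block the counts against Control were 29, 25, 28, 27, 30 and 30. Members with few reads, among them most ligands, limit what could be compared at this depth.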
